A study of Oryctolagus cuniculus with 27 samples.

Results

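The diet effect in the aortic valve was set against the diet effect in the left ventricular myocardium of rabbits, gene by gene, as the difference of 2 differences: diet minus control in the valve, less diet minus control in the myocardium. The libraries were chosen by their labels, 14 of 27 in the series. They were 4 valves after 7 weeks of diet, 4 control valves, 3 diet myocardium samples and 3 control myocardium samples. All animals were wild-type male New Zealand rabbits. The diet held 1% cholesterol plus 3500 IU of ergocalciferol (vitamin D2) per kg per day, and controls ate normal chow. A valve library came from 1 cusp of 1 animal. By the design text the control valves were pooled from 2 and 4 weeks, but 3 of their titles name 7 weeks and 1 names 2 weeks, which leaves their age uncertain. No duration is given for myocardium, but by animal number all 3 diet myocardium samples came from 7-week valve animals, and 2 of the 3 control myocardium samples from control valve animals. Replicates are thus different rabbits, and the tissues share 5 of them.

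The aortic cusp is a thin sheet of fibroblast-like interstitial cells in a layered collagen, elastin and proteoglycan matrix, covered by endothelium. Cholesterol feeding combined with high vitamin D is used in rabbits to bring about lipid deposition, leukocyte entry and mineralisation in the valve. The ventricular wall is made mostly of contracting cardiomyocytes with a dense capillary bed and sees the same plasma, so it serves here as a second tissue of the same rabbits.

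Library totals ran from 8.46 to 16.5 M counts in 7-week diet valves, 12.3 to 15.6 M in control valves, 14.2 to 17.3 M in diet myocardium and 14 to 17 M in control myocardium. Levels below are CPM, counts relative to the library total, further scaled by TMM, which sets the libraries of both tissues on 1 scale. The 26 cardiomyocyte genes tested took 1.35% to 5.54% of counts in 7-week diet valves, 1.43% to 5.38% in control valves, 11.2% to 13.3% in diet myocardium and 9.73% to 13.6% in control myocardium, so heart muscle RNA was present in every valve library. Control myocardium replicate 3 stood apart: it had the 9.73%, and its erythroid genes summed to 3310 CPM, against 391 to 1144 CPM in the 5 other myocardium libraries. Its T and B lymphocyte genes summed to 25.1 CPM, against 3.10 to 6.83 CPM in those 5, and its endothelial (3687 CPM) and neutrophil (7.46 CPM) sums were the highest of the 6. In these bulk samples fewer cells of a type and less RNA per cell cannot be told apart.

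Of 16068 genes tested, 68 had different diet effects in the 2 tissues, or 0.423% (edgeR quasi-likelihood F test, Benjamini-Hochberg adjusted p under 0.05). In 46 of them (0.286%) the effect was higher in valve and in 22 (0.137%) it was lower. The diet effect itself passed in 982 genes in valve, or 6.11%, of which 749 rose (4.66%) and 233 fell (1.45%). In myocardium it passed in 74 genes, or 0.461%, of which 38 rose (0.236%) and 36 fell (0.224%). The count without 1 library ran from 5 to 142, and it was 0 with the animal as a fixed block. It was 229 with the animal as a random block, a fit made with limma's voom in place of edgeR. Voom with no block called 49. The number of genes is thus loosely fixed by these samples.

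The 68 genes and the genes that passed in both tissues were sorted by which effects passed. A response in valve alone, meaning that the difference and the valve effect passed and the myocardium effect did not, was found for 46 genes, of which 32 rose and 14 fell in valve. A response in myocardium alone was found for 13 genes, 6 higher and 7 lower. Both labels rest on the threshold, and an effect that did not pass was not shown to be absent. Among the valve-alone genes the myocardium effect (log2) was -1.38 in NOS2 (adjusted p = 0.0690) and -1.02 in MFNG (adjusted p = 0.0590). The myocardium groups of NOS2 and MFNG did not overlap. In PTPN6 the myocardium effect was -0.04, and the groups overlapped. Both effects passed with opposite signs in 3 genes, and with the same sign in 11 genes, 9 higher and 2 lower. Since 5 rabbits gave both tissues, these 2 counts were also taken from the voom fit with the animal as a random block. There 1 gene was opposite, PCOLCE2, and 3 moved the same way, CDKN1A, F13A1 and LOC108177974. Voom with no block also gave fewer genes of each kind than edgeR. The part of the block in these counts was not separated from that of voom. In 6 genes the difference passed while neither effect did. The other 922 genes that passed in valve and 47 that passed in myocardium had no called difference, so these samples do not show whether they respond in 1 tissue or both. Of the 68 fitted pairs of effects, 67 had opposite signs, which choosing genes on a difference favours.

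**Figure D1:**
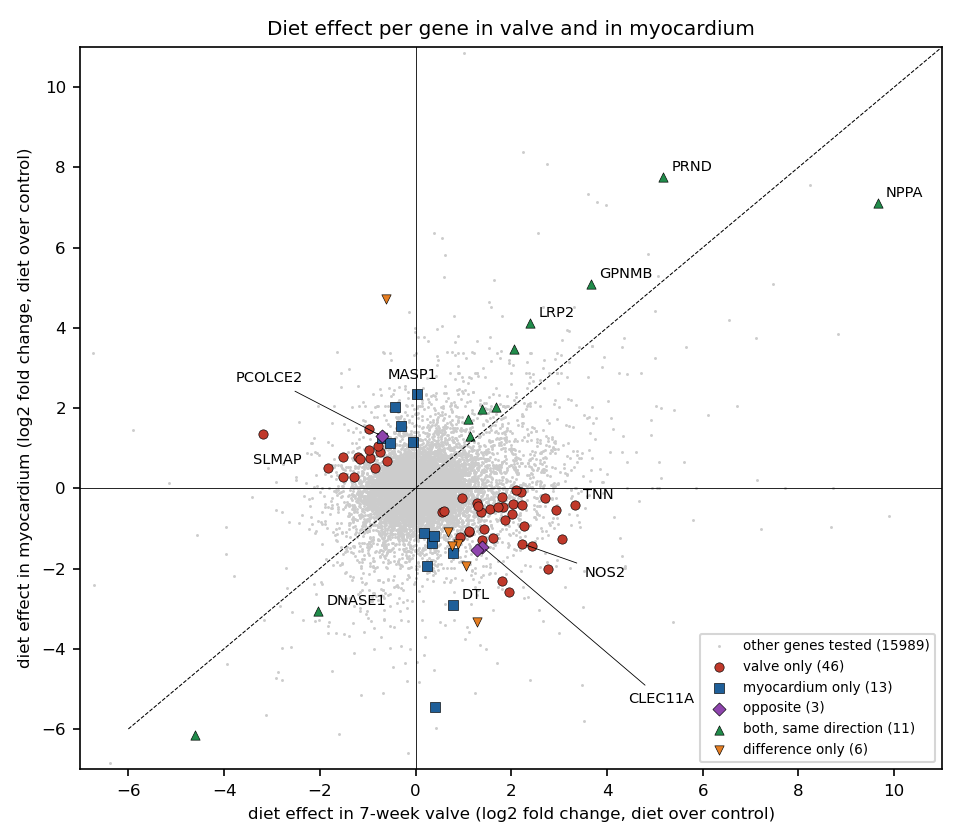
Diet effect of each gene in the 7-week valve (x axis) against its effect in myocardium (y axis), both log2 fold changes, with the response groups in colour, other genes in grey and the line of equal effects dashed. The 46 valve-only genes lie to the left and right of the centre and the 13 myocardium-only genes above and below it. Of the 68 genes with a called difference, 67 have effects of opposite sign and lie in the upper left or lower right. The 11 genes shared by both tissues lie where both effects have the same sign, at varied distance from the dashed line. Outside the axes lie 10 genes, 0 of them in a response group.

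The 3 genes that moved in opposite directions encode a helper of procollagen processing, a growth factor and a scaffold protein. PCOLCE2, which enhances the enzyme that trims the C-terminal propeptide of procollagen, fell in valve and rose in myocardium. Its level was 237, 270, 297 and 250 CPM in 7-week diet valves, against 421, 451, 350 and 493 CPM in control valves. It was 32.3, 31.9 and 26.9 CPM in diet myocardium, against 11.7, 12.5 and 12.9 CPM in control myocardium. The groups did not overlap in either tissue, and the ordering was reversed between them. The valve effect was -0.70 ± 0.16 (log2, ± SE, adjusted p = 0.0186), the myocardium effect 1.3 ± 0.19 (adjusted p = 0.0191) and the difference -2.0 ± 0.24 (adjusted p = 0.00574). No gene had a smaller adjusted p of the difference, but NOS2 and MFNG had the same with smaller unadjusted p.

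CLEC11A, a secreted growth factor also called osteolectin that promotes bone formation in mice, rose in valve and fell in myocardium. Its level was 82.9, 103, 148 and 102 CPM in 7-week diet valves, against 53.6, 40.2, 26.4 and 45.4 CPM in control valves. In diet myocardium it was 6.04, 6.45 and 4.98 CPM, against 13.7, 14.3 and 19.99 CPM in control myocardium. All diet valves lay above all control valves, and all diet myocardium samples below all control myocardium samples. The effects were 1.40 ± 0.23 in valve (adjusted p = 0.00368) and -1.46 ± 0.28 in myocardium (adjusted p = 0.0439), a difference of 2.86 ± 0.36 (adjusted p = 0.00662).

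HOMER3, a scaffold protein that binds metabotropic glutamate receptors, was the third. It stood at 9.07, 9.78, 14.3 and 8.93 CPM in 7-week diet valves and 3.68, 4.80, 3.18 and 5.48 CPM in control valves. In myocardium it stood at 2.78, 2.78 and 1.99 CPM on diet and 6.79, 5.76 and 9.43 CPM on chow. Neither pair of groups overlapped, and the difference was 2.84 ± 0.39 (adjusted p = 0.0114). The difference passed in 14 of 14 fits without 1 library for PCOLCE2 and CLEC11A, and in 13 for HOMER3, where adjusted p was 0.0508 without diet myocardium replicate 2. The opposite call needs the myocardium effect to pass too, and both effects passed together in 9 of the 14 fits for PCOLCE2 but in 4 for CLEC11A and 4 for HOMER3. In the voom fit with the animal as a random block, adjusted p of the myocardium effect was 0.0154 for PCOLCE2. It was 0.0981 for both CLEC11A and HOMER3, so neither had an opposite call in that fit. The part of the block was not separated from that of voom.

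PCOLCE, the paralogue of PCOLCE2 with the same enhancer role, was among the 6 genes in which only the difference passed, and was named after its values were seen. It had 231, 202, 299 and 280 CPM in 7-week diet valves and 147, 160, 111 and 179 CPM in control valves. It had 34.7, 20.1 and 14.4 CPM in diet myocardium and 53.0, 61.2 and 74.0 CPM in control myocardium. Both orderings were the reverse of those of PCOLCE2. The difference was 2.20 ± 0.39 (adjusted p = 0.0288), while the valve effect of 0.76 ± 0.25 had adjusted p = 0.0916 and the myocardium effect of -1.44 ± 0.30 had adjusted p = 0.0523.

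**Figure D2:**
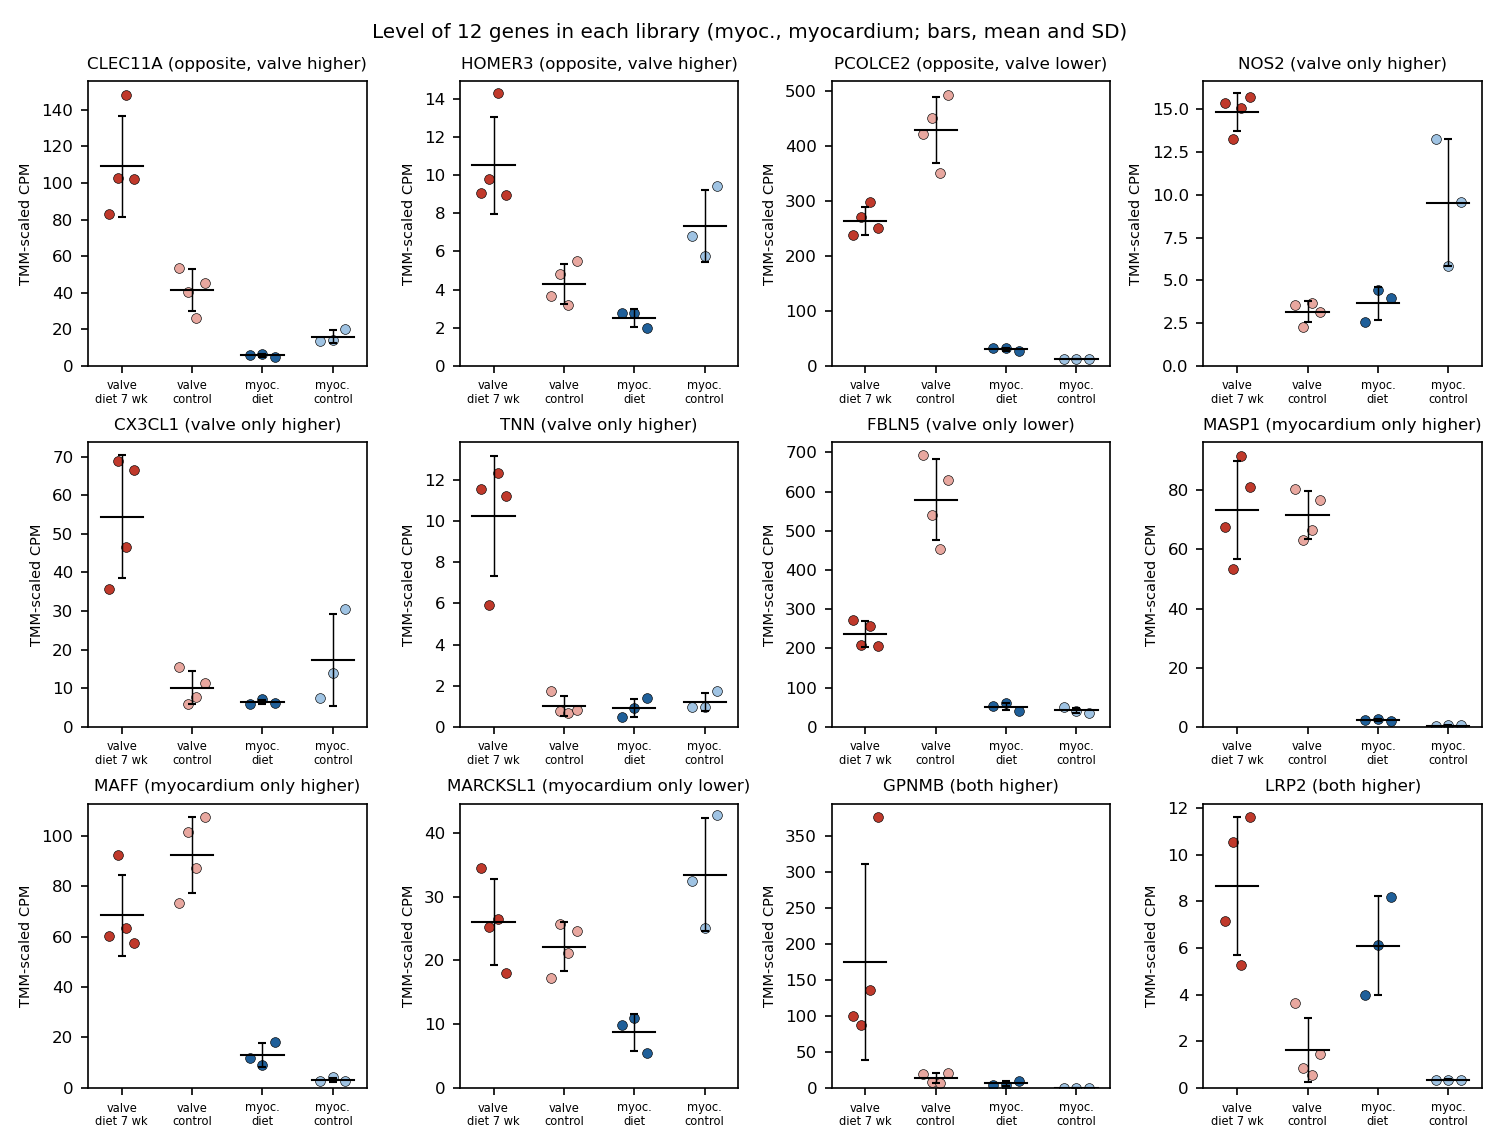
Level of 12 genes in each library in TMM-scaled CPM (linear axes that start at 0), in valve after 7 weeks of diet, control valve, diet myocardium and control myocardium, with 1 point per library, a line at the mean and bars of 1 SD. PCOLCE2 is lower in diet valves than in control valves and higher in diet myocardium than in control myocardium, CLEC11A and HOMER3 show the reverse, and MASP1 is at 53.4 to 91.5 CPM in both valve groups.

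Among the 32 genes that rose in valve alone, NOS2, CX3CL1 and TNN are described first. NOS2, the inducible nitric oxide synthase, had 15.4, 13.3, 15 and 15.7 CPM in 7-week diet valves, against 3.56, 2.30, 3.66 and 3.12 CPM in control valves. In myocardium it had 2.54, 4.41 and 3.99 CPM on diet and 13.2, 5.84 and 9.55 CPM on chow. Diet and control valves were far apart, and the myocardium groups were also separate, in the other direction. NOS2 rose by 2.23 ± 0.27 in valve (adjusted p = 0.00132), stood at -1.38 ± 0.30 in myocardium (adjusted p = 0.0690) and differed by 3.62 ± 0.41 (adjusted p = 0.00574), a difference that passed in all 14 fits without 1 library.

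CX3CL1, or fractalkine, a membrane-bound chemokine of endothelium that draws monocytes and T cells, had 35.8, 68.8, 46.7 and 66.6 CPM in 7-week diet valves, against 15.6, 5.87, 7.67 and 11.3 CPM in control valves. Its myocardium levels were 5.96, 7.10 and 6.28 CPM on diet and 7.40, 14 and 30.6 CPM on chow. The valve groups did not overlap, and the control myocardium values were widely spread, with the highest in replicate 3. The difference of 3.86 ± 0.61 (adjusted p = 0.0213) combined 2.43 ± 0.40 in valve with -1.43 ± 0.46 in myocardium (adjusted p = 0.233). It did not pass without diet myocardium replicate 2 (adjusted p = 0.0665) or 3 (adjusted p = 0.0835).

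TNN, or tenascin-W, a matrix glycoprotein of developing bone and of stroma, had 11.6, 5.92, 12.3 and 11.2 CPM in 7-week diet valves and 1.75, 0.766, 0.691 and 0.837 CPM in control valves. In myocardium it had 0.477, 0.898 and 1.38 CPM on diet and 0.958, 0.959 and 1.73 CPM on chow. Only diet valves stood clear of the others, whereas the myocardium groups overlapped. TNN rose by 3.33 ± 0.41 in valve (adjusted p = 0.00132) and had the largest rise of the named valve-only genes, with a difference of 3.75 ± 0.62 (adjusted p = 0.0261).

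The other valve-only genes with large positive differences had varied roles. PRSS53, a serine protease, had 23.3, 9.13, 23.9 and 20.1 CPM in 7-week diet valves, 3.38, 2.35, 1.11 and 2.36 CPM in control valves and at most 2.33 CPM in any myocardium library. POU2F2, a transcription factor of B cells and other leukocytes, had 20.3, 17.6, 17.1 and 16.1 CPM in diet valves, 4.83, 1.12, 1.52 and 1.83 CPM in control valves and 1.65 to 5.79 CPM in myocardium. In both genes the diet valves were the only libraries above 6 CPM, and PRSS53 lay so low in myocardium that the count filter on that tissue alone would leave it out. Their differences were 4.33 ± 0.82 (adjusted p = 0.0366) and 3.48 ± 0.67 (adjusted p = 0.0388), which passed in 4 and 2 of the 14 fits without 1 library. ARHGAP22, a GTPase-activating protein for Rac, differed by 3.19 ± 0.45 (adjusted p = 0.0130) and SNAP25, a membrane fusion protein of nerve terminals, by 4.10 ± 0.71 (adjusted p = 0.0281). SNAP25 had 1.80 ± 0.43 in valve (adjusted p = 0.0259) and a larger value in myocardium, -2.31 ± 0.56, which did not pass (adjusted p = 0.0911). ARHGAP22 had 2.26 ± 0.30 in valve and -0.93 ± 0.33 in myocardium (adjusted p = 0.316). In both genes all diet myocardium samples lay below all control myocardium samples.

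Another 4 of the 32 genes that rose in valve alone, IRF8, PTPN6, NCKAP1L and LYN, were named after their values were seen. The macrophage, T and B lymphocyte and neutrophil lists had 0 called differences in 18, 7 and 4 genes, against 0.423% of all genes. IRF8, a transcription factor of macrophages and dendritic cells, had 16.6, 13.3, 16.3 and 25.3 CPM in 7-week diet valves and 6.58, 4.54, 6.29 and 5.86 CPM in control valves. Its myocardium levels were 8.90, 5.23 and 4.98 CPM on diet and 5.57, 17.3 and 22 CPM on chow, so the myocardium groups overlapped and the highest myocardium value was in control replicate 3. PTPN6, a phosphatase that restrains immune receptors, differed by 2.14 ± 0.40 with an effect of -0.04 ± 0.30 in myocardium. NCKAP1L, a haematopoietic part of the actin-driving WAVE complex, differed by 2.04 ± 0.35, and LYN, a Src-family kinase of leukocytes, by 1.95 ± 0.35. Adjusted p of these differences was 0.0281 to 0.0372. In LYN the myocardium groups did not overlap, with diet below control.

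The 14 genes that fell in valve alone included FBLN5, MFAP5, ADAMTS8 and SLMAP. FBLN5, or fibulin-5, which helps to assemble elastic fibres, had 272, 210, 258 and 205 CPM in 7-week diet valves and 692, 541, 454 and 630 CPM in control valves. In myocardium it had 53.3, 61.0 and 41.6 CPM on diet and 49.7, 41.3 and 36.5 CPM on chow. All diet valves lay below all control valves, while the myocardium groups overlapped. FBLN5 fell by 1.29 ± 0.20 in valve (effect -1.29, adjusted p = 0.00260), with 0.29 ± 0.23 in myocardium (adjusted p = 0.797) and a difference of -1.58 ± 0.30 (adjusted p = 0.0366).

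MFAP5, a glycoprotein of the microfibrils that carry elastin, had 566, 431, 457 and 419 CPM in 7-week diet valves and 872, 792, 698 and 756 CPM in control valves, against 108, 160 and 131 CPM in diet myocardium and 65.0, 63.1 and 84.0 CPM in control myocardium. Neither pair of groups overlapped. MFAP5 had a valve effect of -0.74 ± 0.19 (adjusted p = 0.0360), a myocardium effect of 0.91 ± 0.22 that did not pass (adjusted p = 0.0911) and a difference of -1.65 ± 0.29 (adjusted p = 0.0288). ADAMTS8, a secreted metalloproteinase, had 13.1, 11.8, 13.6 and 9.35 CPM in diet valves and 23.8, 33.4, 17.7 and 18.5 CPM in control valves. It had 11.1, 10.5 and 14.6 CPM in diet myocardium and 5.92, 4.40 and 2.74 CPM in control myocardium. The myocardium effect of 1.48 ± 0.31 lay just outside the threshold (adjusted p = 0.0532), so the label of a valve response alone rests on a narrow margin here.

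SLMAP, a membrane protein of sarcolemma and sarcoplasmic reticulum, had 360, 173, 227 and 187 CPM in 7-week diet valves, 702, 911, 961 and 793 CPM in control valves, 228, 345 and 293 CPM in diet myocardium and 240, 235 and 139 CPM in control myocardium. Its valve effect of -1.83 ± 0.27 was the largest fall among the named valve-only genes apart from KL. CREB5, a transcription factor, differed by -2.29 ± 0.37, ATP2A3, a calcium pump of the endoplasmic reticulum, by -1.99 ± 0.39, INPP4A, a phosphoinositide phosphatase, by -1.80 ± 0.35 and DNAJB4, a heat shock co-chaperone, by -1.91 ± 0.35. Adjusted p of these 5 differences was 0.0219 to 0.0411, and in ATP2A3 control valve replicate 2, at 136 CPM, stood apart from 70.3 to 72.8 CPM in the 3 other control valves. In CREB5, ATP2A3 and DNAJB4 all diet myocardium samples lay above all control myocardium samples, though these effects did not pass (adjusted p = 0.310 to 0.349).

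KL, or Klotho, the co-receptor through which FGF23 lowers phosphate and active vitamin D, also fell in valve alone, and is named although its level was under the 5 CPM set for naming. It had 0.537, 0.386, 0.602 and 0.423 CPM in 7-week diet valves, against 1.87, 9.75, 2.76 and 3.81 CPM in control valves. It had 1.03, 0.735 and 0.920 CPM in diet myocardium and 0.435, 0.320 and 0.298 CPM in control myocardium. Neither pair overlapped, but the myocardium values lay so low that the count filter on myocardium alone would leave the gene out. KL had a valve effect of -3.18 ± 0.49 (adjusted p = 0.00260) and a difference of -4.53 ± 0.77 (adjusted p = 0.0281).

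The 6 genes that rose in myocardium alone were FIBIN, MAFF, MASP1, PLXDC2, SCARA5 and SMAD7. MASP1, a serine protease of the lectin complement pathway, had 67.7, 53.4, 91.5 and 81.1 CPM in 7-week diet valves and 80.3, 63.3, 66.5 and 76.7 CPM in control valves. Its myocardium levels were 2.46, 2.78 and 1.92 CPM on diet, against 0.261, 0.480 and 0.597 CPM on chow. The valve groups overlapped at a high level, and the myocardium groups were separate at a far lower one. MASP1 had effects of 0.04 ± 0.19 in valve (adjusted p = 0.931) and 2.35 ± 0.32 in myocardium (adjusted p = 0.0167), and a difference of -2.32 ± 0.37 (adjusted p = 0.0213).

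MAFF, a small Maf transcription factor that pairs with NRF2-type partners, had 60.1, 92.4, 63.5 and 57.7 CPM in 7-week diet valves and 73.4, 102, 87.2 and 107 CPM in control valves, with overlap. In myocardium it had 11.7, 9.15 and 18.3 CPM on diet, against 2.7, 4.16 and 2.69 CPM on chow, with none. Its myocardium effect was 2.04 ± 0.30 (adjusted p = 0.0191) and its difference -2.47 ± 0.37 (adjusted p = 0.0201), which was lost without control myocardium replicate 3 (adjusted p = 0.0593). SMAD7, the inhibitory SMAD that TGF-beta itself induces, had 18.8 to 30.2 CPM in 7-week diet valves and 22.7 to 25.7 CPM in control valves, and 26.9, 22.1 and 21.4 CPM in diet myocardium against 10.9, 10.6 and 10.1 CPM in control myocardium. The valves of both groups thus stood near the level of diet myocardium. SMAD7 differed by -1.20 ± 0.24 (adjusted p = 0.0411) and passed in 2 of the 14 fits without 1 library.

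FIBIN, a secreted protein first described in fish fin development, differed by -1.94 ± 0.31 (adjusted p = 0.0213) and PLXDC2, a transmembrane receptor with a plexin domain, by -1.87 ± 0.32 (adjusted p = 0.0281). The valve effect of FIBIN, -0.69 ± 0.20, lay just outside the threshold (adjusted p = 0.0525), and its valve groups did not overlap. It passed in 8 of 12 other settings, and both effects passed together in 5. The label of a myocardium response alone thus rests on a narrow margin for FIBIN. MASP1, MAFF, FIBIN, PLXDC2 and SCARA5 were all higher in both valve groups than in any myocardium library. The 17 valve interstitial and fibroblast markers summed to 2259 to 2805 CPM in diet myocardium and 2771 to 3322 CPM in control myocardium. MFAP5, a member of that list, was higher in diet than in control myocardium without overlap. The part of valve or fibroblast RNA in these results was not tested.

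The 7 genes that fell in myocardium alone were DOK4, DTL, MARCKSL1, TM4SF18, TP53I11, TVP23A and VSIR. TVP23A was at 0 CPM in all 3 diet myocardium samples, against 0.174 to 0.477 CPM in control myocardium, and was tested only through its valve libraries. DTL, which guides a ubiquitin ligase to replication proteins, had 4.73, 1.29, 2.41 and 3.12 CPM in 7-week diet valves and 2.17, 0.817, 2.7 and 1.14 CPM in control valves. Its myocardium levels were 1.51, 0.980 and 0.537 CPM on diet and 5.75, 6.79 and 10.4 CPM on chow. The valve groups overlapped and the myocardium groups were separate. DTL had a myocardium effect of -2.92 ± 0.56 (adjusted p = 0.0439) and a difference of 3.70 ± 0.72 (adjusted p = 0.0398).

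MARCKSL1, an actin-binding protein, had 34.4, 25.2, 26.5 and 18 CPM in 7-week diet valves and 17.3, 25.7, 21.1 and 24.6 CPM in control valves, against 9.85, 10.9 and 5.44 CPM in diet myocardium and 32.5, 25.1 and 42.7 CPM in control myocardium. The valve groups overlapped and the myocardium groups did not. TM4SF18, a membrane protein with 4 spans, differed by 2.39 ± 0.37 (adjusted p = 0.0210) and TP53I11, a p53-induced protein, by 1.70 ± 0.32 (adjusted p = 0.0366). The valve effect of TM4SF18, 0.77 ± 0.24, did not pass (adjusted p = 0.0729), but its valve groups did not overlap. The highest control value of DTL, MARCKSL1, TM4SF18, TP53I11 and VSIR was in control myocardium replicate 3, the library with the high erythroid and low cardiomyocyte share. Without it the difference was 3.41 for DTL (adjusted p = 0.103), 1.95 for MARCKSL1 (adjusted p = 0.0787) and 1.54 for TP53I11 (adjusted p = 0.0944), against 3.70, 2.17 and 1.70 with it. TM4SF18 kept its call, at 2.04 (adjusted p = 0.0441), and 14 genes in all had a called difference. The part of that library's makeup in these results was not tested.

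The 11 genes that moved the same way in both tissues were CDKN1A, F13A1, GPNMB, IGFBP3, LOC103348133, LRP2, NPPA, PRND and SLCO2A1, which rose, and DNASE1 and LOC108177974, which fell. NPPA, the atrial natriuretic peptide, had 325, 1453, 1639 and 189 CPM in 7-week diet valves, against 0.242, 0.919, 2.42 and 0.914 CPM in control valves. It had 5.32, 107 and 38.4 CPM in diet myocardium, against 0.261, 0.799 and 0.0597 CPM in control myocardium. No groups overlapped, and the diet libraries of each tissue were spread widely. NPPA rose by 9.66 ± 1.20 in valve (adjusted p = 0.00132) and 7.11 ± 1.35 in myocardium (adjusted p = 0.0437), and the difference of 2.55 ± 1.74 did not pass (adjusted p = 0.539). NPPA is also on the atrial muscle list, of which 7 of 9 genes tested rose in valve and NPPA alone in myocardium. The shares over all genes were 4.66% and 0.236%.

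GPNMB, a glycoprotein of lysosome-rich and lipid-laden macrophages, had 99.7, 88.0, 136 and 376 CPM in 7-week diet valves and 19.5, 8.83, 6.15 and 20.8 CPM in control valves, against 4.21, 4.25 and 10.2 CPM in diet myocardium and 0.174, 0.320 and 0.0597 CPM in control myocardium. It rose by 3.67 ± 0.55 in valve (adjusted p = 0.00254) and 5.10 ± 0.91 in myocardium (adjusted p = 0.0437). LRP2, or megalin, an endocytic receptor that takes up vitamin D with its binding protein, had 7.17, 10.5, 5.25 and 11.6 CPM in diet valves and 3.62, 0.868, 0.553 and 1.45 CPM in control valves, against 3.97, 6.12 and 8.20 CPM in diet myocardium and 0.348, 0.320 and 0.358 CPM in control myocardium. LRP2 rose by 2.40 ± 0.48 in valve (adjusted p = 0.0102) and 4.12 ± 0.65 in myocardium (adjusted p = 0.0254). For both genes the diet and control groups were separate in each tissue, and neither difference passed (adjusted p = 0.6 for GPNMB and 0.357 for LRP2).

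PRND, the prion-like protein Doppel, had 11.6, 33.1, 0.219 and 15.7 CPM in 7-week diet valves and 0.153 to 0.837 CPM in control valves, and 24.6, 11.1 and 110 CPM in diet myocardium against 0.0799 to 0.358 CPM in control myocardium. Diet valve replicate 3 lay with the controls and the other 3 diet valves above them. CDKN1A, the cell-cycle inhibitor p21, rose by 1.39 ± 0.27 in valve and 1.98 ± 0.32 in myocardium. IGFBP3, a carrier of insulin-like growth factors, rose by 2.07 ± 0.54 in valve and 3.47 ± 0.66 in myocardium. Its valve groups overlapped, with 65.2 CPM in diet valve replicate 3 and 74.8 CPM in control valve replicate 1. F13A1, the A chain of coagulation factor XIII and a macrophage transcript, rose by 1.10 ± 0.23 in valve and 1.73 ± 0.28 in myocardium, and SLCO2A1, a prostaglandin transporter, by 1.68 ± 0.34 and 2.03 ± 0.40.

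DNASE1, a secreted DNA-cutting enzyme, and LOC108177974, a protein-coding gene with no name in RefSeq, fell in both tissues. LOC108177974 had the smallest adjusted p of both effects. It had 6.0, 10.9, 8.15 and 8.83 CPM in 7-week diet valves and 183, 229, 224 and 182 CPM in control valves, against 1.91, 1.22 and 1.53 CPM in diet myocardium and 58.0, 116 and 157 CPM in control myocardium. Its effects were -4.60 ± 0.30 in valve (adjusted p = 7.01e-06) and -6.14 ± 0.39 in myocardium (adjusted p = 4.28e-06). Every diet library lay far below every control library of its tissue. DNASE1 had 0.129 to 0.528 CPM in diet valves and 0.460 to 2.63 CPM in control valves, and 0.715 to 1.07 CPM in diet myocardium and 5.66 to 9.27 CPM in control myocardium, with effects of -2.04 ± 0.51 and -3.06 ± 0.56 and an overlap between the valve groups. Both effects passed together in 14 of the 14 fits without 1 library for LOC108177974, 11 for CDKN1A, 9 for LRP2, 8 for F13A1, 6 for GPNMB and 5 for NPPA. They did so in 3 for IGFBP3 and PRND, 2 for DNASE1 and SLCO2A1 and 0 for LOC103348133. In the voom fit with the animal as a random block, adjusted p of the myocardium effect was 0.0526 for IGFBP3, 0.0786 for LRP2 and 0.0890 for LOC103348133. It was 0.131 for SLCO2A1, 0.273 for NPPA, 0.277 for GPNMB and 0.497 for PRND. DNASE1 lost its valve effect there (adjusted p = 0.0814). Of these 11 genes, 0 had a called difference between the tissues, which does not show that the effects were equal: SE of the difference was 0.34 for LOC103348133, a long non-coding RNA, and 1.91 for PRND.

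Genes that passed in 1 tissue were then read by sign in the other. Of the 749 genes that rose in valve, 62.8% had a positive effect in myocardium, with a median of 1.90 in valve and 0.19 in myocardium. Of the 233 that fell in valve, 59.7% had a negative effect in myocardium, with a median of -1.04 in valve and -0.08 in myocardium. Of the 38 that rose in myocardium, 78.9% had a positive effect in valve, with a median of 2.0 in myocardium and 0.60 in valve. Of the 36 that fell in myocardium, 61.1% had a negative effect in valve, with a median of -1.85 in myocardium and -0.18 in valve. Across all 16068 genes Pearson's r of the 2 effects was 0.215 and Spearman's rho 0.085, given as a description, since genes are not replicates and 5 rabbits gave libraries to both tissues.

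Most macrophage genes rose in valve: 14 of 18 tested, against 4.66% of all genes. In myocardium 0 of the 18 passed and in the difference 0, where the shares over all genes were only 0.461% and 0.423%, so these zeros say little about macrophage genes. Their median effect was 2.22 in valve and 0.68 in myocardium and the median difference 1.79, against 0.01 over all genes tested. CD68, a lysosomal protein of macrophages, had 47.5, 78.7, 58.5 and 86.8 CPM in 7-week diet valves and 20.2, 10.5, 7.40 and 14.8 CPM in control valves, against 8.50, 4.98 and 8.74 CPM in diet myocardium and 3.31, 5.52 and 5.55 CPM in control myocardium. Its difference of 1.74 ± 0.48 had adjusted p = 0.115. CD14, a lipopolysaccharide co-receptor, rose by 2.92 ± 0.36 in valve (0.88 ± 0.40 in myocardium), and CD163, a haemoglobin scavenger receptor, rose by 2.05 ± 0.42 in valve and had a value as large in myocardium, 2.19 ± 0.50, which did not pass (adjusted p = 0.0807). DESeq2's Wald test called the difference in 7 of the 18 and the random animal block in 4.

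Of 13 genes of lipid-laden macrophages 7 rose in valve (4 without diet valve replicate 3 or 4 or control valve replicate 3 or 4). In myocardium 1 rose, GPNMB, and the median difference was 0.08. Over all genes 4.66% rose in valve and 0.236% in myocardium. TREM2, a lipid-sensing receptor, had 39.9, 76.7, 48.0 and 71.4 CPM in 7-week diet valves and 11.2, 3.17, 2.56 and 7.31 CPM in control valves, and 2.86, 2.53 and 4.83 CPM in diet myocardium and 0.435, 2.32 and 0.776 CPM in control myocardium. SPP1, or osteopontin, had 556, 352, 581 and 517 CPM in diet valves and 184, 92.4, 103 and 113 CPM in control valves, and 6.36, 12 and 32.7 CPM in diet myocardium and 0.435, 1.68 and 3.76 CPM in control myocardium. In both genes diet libraries lay above control libraries in each tissue. The differences were 1.74 ± 0.79 (adjusted p = 0.350) for TREM2 and -1.04 ± 0.78 (adjusted p = 0.582) for SPP1, and the myocardium effect of SPP1 was 3.07 ± 0.64 (adjusted p = 0.0532).

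Leukocyte adhesion and cytokine genes, proteases and cell-cycle genes rose in part in valve, where 4.66% of all genes rose. Of 16 adhesion and cytokine genes 6 rose in valve and 0 passed in myocardium, where 0.461% of all genes did. CX3CL1 was the 1 with a called difference. VCAM1, an adhesion molecule for monocytes, had 127, 56.5, 70.6 and 112 CPM in 7-week diet valves and 46.9, 22.1, 24.9 and 24.8 CPM in control valves, with a difference of 1.12 ± 0.54 (adjusted p = 0.385). Of 22 matrix proteases and inhibitors 10 rose in valve (6 without control valve replicate 3) and 1 in myocardium. PLAUR, the urokinase receptor, rose by 2.97 ± 0.26 in valve with 0.99 ± 0.33 in myocardium, and MMP9, a gelatinase, by 3.78 ± 0.67 with 1.75 ± 0.90. Of 33 cell-cycle genes 11 rose in valve and 0 passed in myocardium, where 0.461% of all genes did. The valve count was loosely fixed: it was 1 without diet valve replicate 4 or any of control valve replicates 2 to 4, 2 without diet valve replicate 3, 4 without diet valve replicate 1, 7 without diet myocardium replicate 2 or 3 or control myocardium replicate 2, and 18 without control valve replicate 1. Their median was 1.57 in valve and -0.39 in myocardium, with a positive difference in 31 of 33 and a called difference in 0, against 0.423% of all genes.

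**Figure D3:**
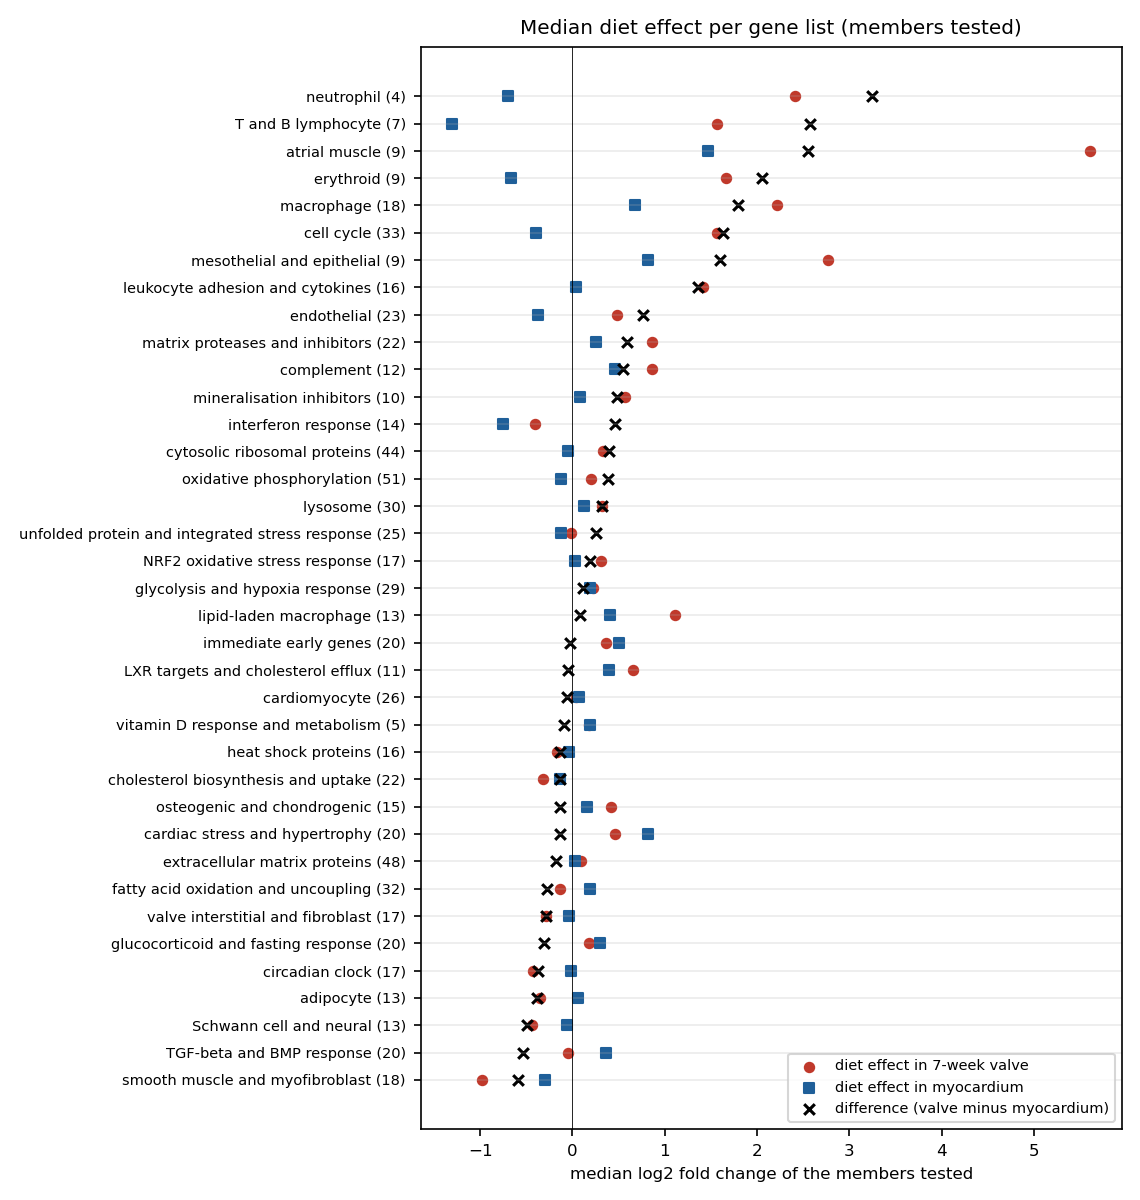
Median log2 fold change of the tested members of each gene list (number in brackets): the diet effect in the 7-week valve (circles), the diet effect in myocardium (squares) and their difference (crosses). The macrophage median is 2.22 in valve and 0.68 in myocardium, the cell-cycle medians are 1.57 and -0.39, and the median difference over all genes tested is 0.01.

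Markers of other cells moved with the groups. Over all genes tested 4.66% rose in valve and 1.45% fell. Of 9 atrial muscle genes 7 rose in valve, among them SLN, which regulates the calcium pump (7.46 ± 0.98), MYL4 (7.11 ± 1.16) and MYL7 (5.61 ± 1.05), light chains of atrial myosin. Their sum was 466.1, 2252, 4088 and 425 CPM in 7-week diet valves, against 35.86, 26.35, 45.97 and 39.81 CPM in control valves. In myocardium it was 66.11, 196.2 and 85.3 CPM on diet and 61.75, 52.2 and 37 CPM on chow. By this sum all diet valves lay above all control valves. NPPA, described above among the genes that rose in both tissues, is on this list. NPPA gave 325, 1453, 1639 and 189 CPM of the diet valve sums and 107 of the 196.2 CPM in diet myocardium replicate 2. Of 26 cardiomyocyte genes 0 passed in either tissue, against 6.11% of all genes in valve and 0.461% in myocardium. Their sums overlapped between diet and control valves. Erythroid genes summed to 1970 to 3905 CPM in diet valves and 573.2 to 1538 CPM in control valves. Smooth muscle and myofibroblast genes summed to 14010 to 22300 CPM in diet valves and 32240 to 47660 CPM in control valves, with 1 of 18, SMTN (smoothelin), past the threshold (4 without diet valve replicate 1, 2 and 6 without control myocardium replicates 2 and 3), and ACTA2 at -1.12 ± 0.46 (adjusted p = 0.168). The part of these shifts in the valve effects was not tested. A fit with the cardiomyocyte share of each valve library as a covariate called 93 genes. It cannot test them, since that share does not measure the atrial, erythroid or smooth muscle sums.

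**Figure D4:**
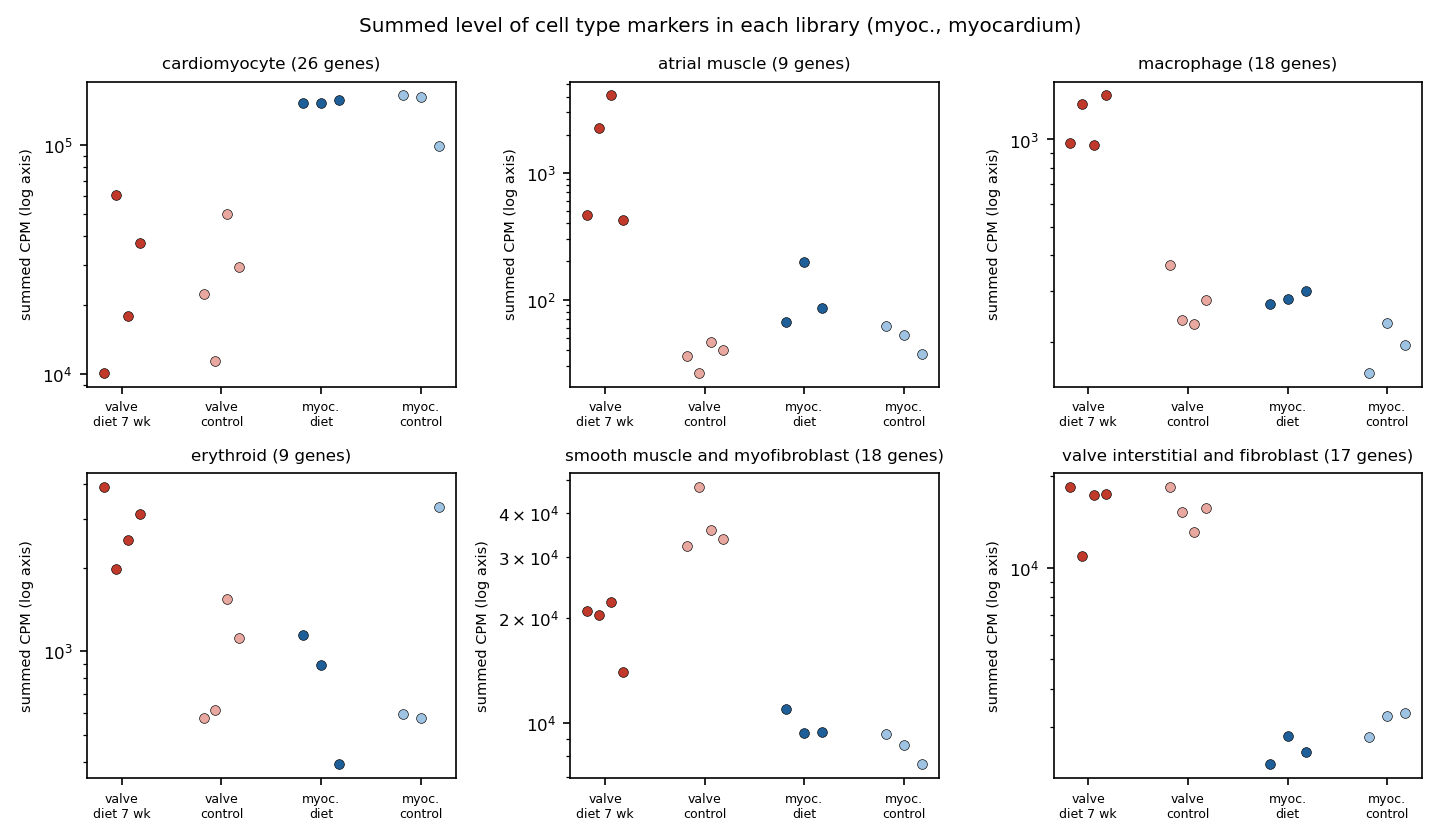
Summed CPM (log axis) of the tested members of 6 marker lists in each library, grouped as valve after 7 weeks of diet, control valve, diet myocardium and control myocardium. Atrial muscle genes, NPPA among them, reach 425 to 4088 CPM in diet valves and at most 196.2 CPM elsewhere. Cardiomyocyte genes overlap between diet and control valves, and control myocardium replicate 3 has the highest erythroid and lowest cardiomyocyte sum of the myocardium libraries.

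Of 38 genes on the cholesterol, LXR and vitamin D lists 0 had a called difference, a count that the share of 0.423% over all genes makes uninformative. Of 22 cholesterol biosynthesis and uptake genes 2 fell in valve (0 to 2 without 1 library), where 1.45% of all genes did. They were LSS and FDFT1, enzymes of the sterol pathway. HMGCS1 stood at -0.64 ± 0.25 in valve and 0.05 ± 0.29 in myocardium. Of 11 LXR targets, which export lipid from cells, ABCG1 (2.35 ± 0.40) and PLTP (2.10 ± 0.24) rose in valve, where 4.66% of all genes did. None passed in myocardium, where 0.461% of all genes did. ABCA1 was at 1.03 ± 0.39 in valve and 1.09 ± 0.45 in myocardium.

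Among 5 vitamin D genes tested LRP2 alone passed, in both tissues. VDR, the vitamin D receptor, had 3.32, 3.60, 4.81 and 3.17 CPM in 7-week diet valves and 0.785, 1.48, 3.18 and 1.37 CPM in control valves, and 4.21, 1.22 and 0.690 CPM in diet myocardium and 8.45, 6.16 and 2.03 CPM in control myocardium. Its difference of 2.56 ± 0.86 did not pass (adjusted p = 0.203). Of 15 osteogenic and chondrogenic genes 3 rose in valve, ALPL (1.39 ± 0.30), the phosphatase that frees phosphate for mineral, IBSP (3.15 ± 0.77), a bone matrix sialoprotein, and ACAN (1.70 ± 0.39), the cartilage proteoglycan. BGLAP (-2.51 ± 0.39), or osteocalcin, and SOST (-2.16 ± 0.50), or sclerostin, fell in valve. The number that rose was 0 without diet valve replicate 4 or control valve replicate 2 and 1 without control valve replicate 3 or 4, and the number that fell was 1 without diet valve replicate 4 or control valve replicate 4. In myocardium 0 of the 15 passed, and the difference passed in 0. The shares over all genes were 0.461% and 0.423%, so these zeros say little about the list. In valve 4.66% of all genes rose and 1.45% fell. RUNX2, the transcription factor of bone-forming cells, stood at 0.75 ± 0.46 in valve, and MGP, the matrix inhibitor of mineralisation, at 0.67 ± 0.34.

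Of 48 matrix protein genes 5 rose in valve, COL6A1, FN1, LUM, TNC and TNN, against 4.66% of all genes. FBLN5 alone fell, against 1.45% of all genes. In myocardium 0 passed, where 0.461% of all genes did. The number that rose was 1 without diet valve replicate 4 or any of control valve replicates 2 to 4, 2 without diet valve replicate 3, and 3 without diet valve replicate 1, diet myocardium replicate 2 or control myocardium replicate 2. The number that fell was 3 without diet valve replicate 1 or control myocardium replicate 3. COL1A1, the main fibrillar collagen chain, had 3641, 1344, 2966 and 3427 CPM in 7-week diet valves and 2361, 1283, 1044 and 1489 CPM in control valves, with overlap, and a difference of 1.15 ± 0.54 (adjusted p = 0.371). Of 20 TGF-beta and BMP genes TGFB1 (1.32 ± 0.24) and TGFBI (0.80 ± 0.21) rose in valve, where 4.66% of all genes did. In myocardium 2 rose, SMAD7 (1.16 ± 0.18) among them, where 0.236% of all genes did. Without 1 library these counts ran from 1 to 4 in valve and from 0 to 3 in myocardium. SMAD7 was the member with a called difference.

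Of the metabolic and stress genes named for comparison, UCP2 and HMOX1 rose in valve, with a difference that did not pass. UCP2, an uncoupling protein of mitochondria, had 56.4, 70.6, 60.5 and 96.9 CPM in 7-week diet valves and 20.8, 12.7, 12.2 and 17.3 CPM in control valves, against 14.8, 8.82 and 8.05 CPM in diet myocardium and 5.31, 7.91 and 16.6 CPM in control myocardium. It rose by 2.17 ± 0.33 in valve (adjusted p = 0.00260), and the difference of 2.10 ± 0.50 missed the threshold (adjusted p = 0.0802). HMOX1, the enzyme that breaks down haem, rose by 2.06 ± 0.28 in valve with 0.59 ± 0.32 in myocardium, a difference of 1.46 ± 0.42 (adjusted p = 0.133). The cardiac stress gene NPPB, the B-type natriuretic peptide, stood at 2.69 ± 0.92 in valve and 3.20 ± 1.08 in myocardium, neither past the threshold. MYH7, the slow cardiac myosin, stood at -0.17 ± 0.76 in valve and 0.28 ± 0.88 in myocardium, and PDK4, a brake on glucose oxidation, at -0.20 ± 0.80 and 1.52 ± 0.95. Of 51 oxidative phosphorylation genes 0 passed in either tissue, against 6.11% of all genes in valve and 0.461% in myocardium.

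**Figure D5:**
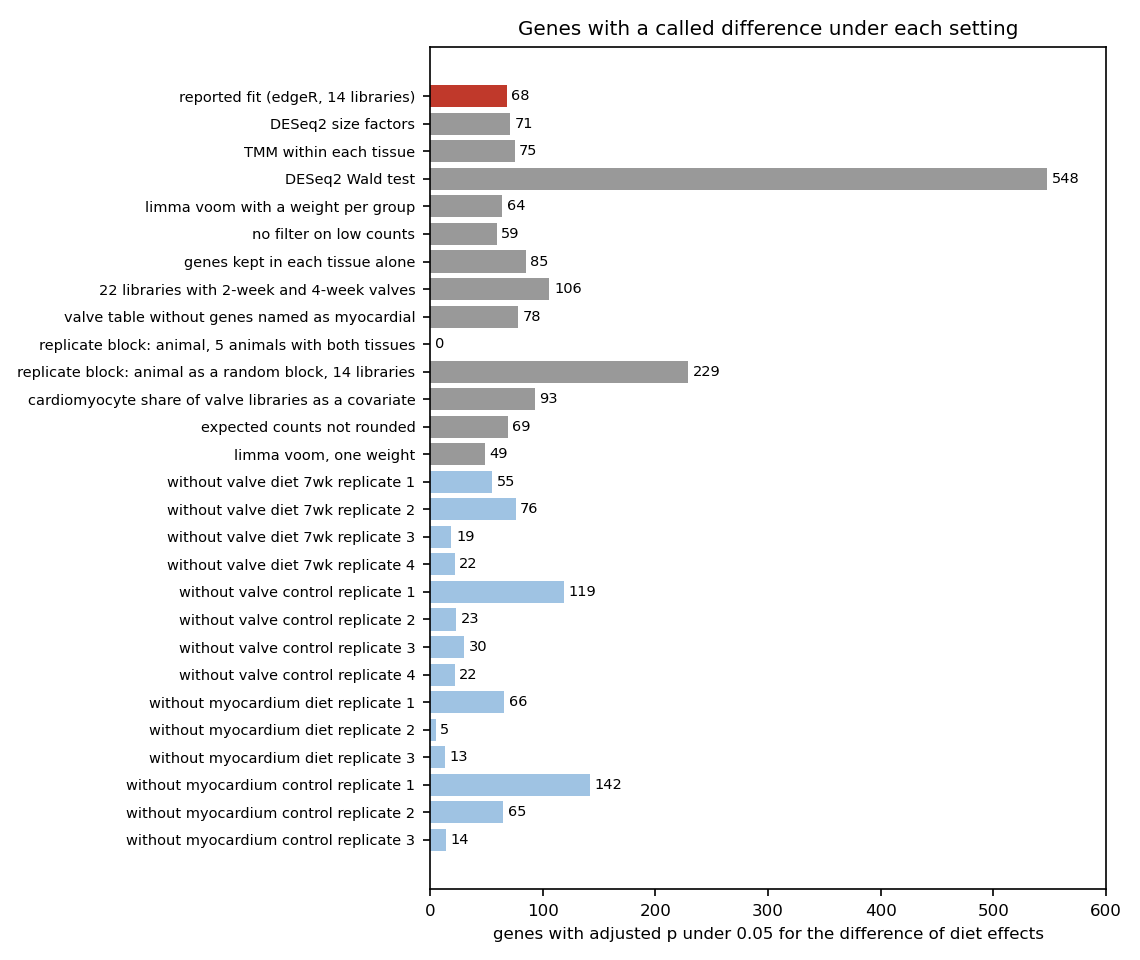
Number of genes with a called difference of diet effects (x axis) in the reported edgeR fit (68, top bar), under other settings (grey) and without each of the 14 libraries in turn (blue). The count is 548 with DESeq2's Wald test, 0 with the animal as a fixed block, 142 without control myocardium replicate 1 and 5 without diet myocardium replicate 2.

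The signs of the 68 differences held in every refit in which the gene was tested, while the calls did not. Since the 68 were chosen for their difference in these same libraries, which the refits reuse, kept signs are no separate evidence. Without diet myocardium replicate 2, 5 genes were called and all 5 were among the 68. The fit with the animal as a fixed block could use 5 rabbits and 10 libraries, had 3 residual degrees of freedom, called 0 genes (1544 at an unadjusted p under 0.05) and gave the same sign for 68 of 68. The voom fit with the animal as a random block used all 14 libraries, called 229 genes and kept 68 of the 68. Voom with no block called 49 and kept 46 of the 68. Over the 14 fits without 1 library, the difference passed in 14 for NOS2, PCOLCE2 and CLEC11A, in 13 for ARHGAP22, HOMER3, MAFF and MASP1, and in 12 for CX3CL1, FIBIN and TM4SF18. It passed in 11 for CREB5, 10 for ADAMTS8, 8 for TNN, SNAP25 and PLXDC2, 7 for MARCKSL1 and MFAP5, 6 for SLMAP and DNAJB4 and 5 for TP53I11. It passed in 4 for PRSS53, DTL, INPP4A and FBLN5, 2 for POU2F2 and SMAD7, and 1 for ATP2A3.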

How the data were processed

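RNA was sequenced from 1 valve cusp per rabbit and from left ventricle. Per the labels' protocols it was extracted with Trizol and made into stranded single-end libraries; the submitters' processing notes name RSEM 1.3.3 and STAR 2.7.8a, beside edgeR 3.42.4, Trim Galore 0.6.6 and FastQC 0.11.9. Not given in the sources used here are genome build, annotation and strand setting of the counting, and reads of overlapping or antisense genes and of near-identical copies may not be told apart. The authors deposited expected counts per gene (10.1% of valve and 9.54% of myocardium values were not whole), which were rounded. All 31346 genes are in both tables; the valve table with all genes was used.

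A joint fit of the 4 groups used edgeR 4.0.16 in R 4.3.3: filterByExpr (minimum count 10, minimum total 15), TMM, quasi-likelihood F tests, two-sided, Benjamini-Hochberg adjustment over 16068 genes, threshold 0.05. SE is the absolute log2 fold change divided by the root of F. Alternatives used DESeq2 1.42.0 and limma 3.58.1. Fits were tested on simulated data.

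Animal numbers in the labels pair 5 rabbits across tissues; same-animal deviations from the group means correlated at 0.0463 to 0.490. Library numbers differ between groups (1 to 4 for 7-week valves, 31 to 34 for control valves, 20 and 25 to 29 for myocardium); what they number is not stated, so any run effect cannot be told apart from the diet effect in valve.

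Named genes have a symbol and a mean of at least 5 CPM in some group: the 8 largest differences in each direction, up to 4 genes per response group, up to 3 per gene list, and a fixed panel, in which SCD is not listed; not every panel or list gene is reported here. Members, lists and panel were chosen with earlier results of these data known. Of 828 list entries 728 were tested; 39 were matched by RefSeq LOC number. RefSeq gene types come from mOryCun1.1. Counts are reads, not molecules.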

Additional observations from a re-analysis of the deposited data

Results flagged for a closer look

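The diet effect differed between valve and myocardium, by the test of the difference itself, in 27 named genes. The difference (valve minus myocardium, log2) was positive for PRSS53 (4.33), SNAP25 (4.10), CX3CL1 (3.86), TNN (3.75), DTL (3.70), NOS2 (3.62), POU2F2 (3.48), ARHGAP22 (3.19), CLEC11A (2.86), HOMER3 (2.84), TM4SF18 (2.39), MARCKSL1 (2.17) and TP53I11 (1.70). It was negative for MAFF (-2.47), ADAMTS8 (-2.45), SLMAP (-2.32), MASP1 (-2.32), CREB5 (-2.29), PCOLCE2 (-2.0), ATP2A3 (-1.99), FIBIN (-1.94), DNAJB4 (-1.91), PLXDC2 (-1.87), INPP4A (-1.80), MFAP5 (-1.65), FBLN5 (-1.58) and SMAD7 (-1.20).

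In 8 of 100 valve groups of 4 examined for the named genes, 1 library lay far from the other 3, where chance gives about 1 in 20 groups. Among 7-week diet valves these were TNN in replicate 2 (5.92 CPM), MGP in replicate 1 (1941 CPM) and HMOX1 in replicate 4 (41.3 CPM). Among control valves they were ATP2A3 (136 CPM), FIBIN (88.0 CPM) and TM4SF18 (5.72 CPM) in replicate 2, and VCAM1 (46.9 CPM) and ABCA1 (51.9 CPM) in replicate 1.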

How the results depend on the processing

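Of 68 called differences, those tested kept their sign in all alternatives run, which choosing them on these same libraries favours. The counts depended on the fit. DESeq2's Wald test called 548 differences (382 higher, 166 lower), with 345 genes in valve alone, 97 in myocardium alone, 29 in opposite directions and 75 in both, and 1736 called in valve and 387 in myocardium. The replicate block of the animal as a random effect was fitted with voom (within-animal correlation 0.228) and called 229 (171 higher, 58 lower). It had 157 in valve alone, 22 in myocardium alone, 1 opposite, 3 in both and 36 called in myocardium. The replicate block of the animal as a fixed effect called 0 (0 higher, 0 lower). It gave no class counts, since diet is then only a contrast between animals. Adding the 2-week and 4-week valves (22 libraries) called 106 (38 lower), with 27 in myocardium alone, 6 opposite and 112 in myocardium. With voom and a weight per group, 1 gene was opposite, 3 were in both and 34 were called in myocardium; with 1 weight for all, an alternative chosen after seeing the data, these were 1, 4 and 29. Without a filter 17 genes were in both, and with the cardiomyocyte covariate 6 were opposite. The valve table without the 346 genes the authors took out, which included GRIA2 of the 68, called 78.

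Without 1 library, the called differences ran from 5 to 142 (3 to 117 higher, 2 to 30 lower), genes in valve alone from 4 to 100, in myocardium alone from 1 to 18, opposite from 0 to 5, in both from 1 to 17, called in valve from 446 to 1297 and called in myocardium from 3 to 76. The differences called were 55, 76, 19 and 22 without diet valve replicates 1 to 4, 119, 23, 30 and 22 without control valve replicates 1 to 4, 66, 5 and 13 without diet myocardium replicates 1 to 3, and 142, 65 and 14 without control myocardium replicates 1 to 3. The cause was not tested.

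Of single named genes, 1137 values kept their side of the threshold, 191 lost a call, 4 gained a call and 13 changed sign. The 1137 include genes whose difference did not pass in the reported fit and so could not lose a call. All 191 came from named genes with a called difference. Reversed signs arose in 3 genes whose difference did not pass. ABCA1 (-0.05) was at 0.17 with either voom fit, 0.86 with the fixed and 0.30 with the random replicate block, and -0.30 to 0.60 without 1 library (0.04 without diet valve replicate 2 or control myocardium replicate 3, 0.10 without diet valve replicate 3, 0.23 without diet myocardium replicate 3). NPPB was at 0.72 with the fixed replicate block and 0.21 without control valve replicate 4 (-1.70 to 0.21 without 1 library), and MYH7 at 0.14 with that block and 0.14 without control valve replicate 3 (-1.11 to 0.14 without 1 library). Groups of 3 and 4 limit precision: median SE was 0.424 for the difference, 0.276 in valve and 0.321 in myocardium.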

Other observations

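Some gene groups that no comparison above turned on moved in valve without a called difference. The shares over all genes in valve were 4.66% higher and 1.45% lower. Complement genes C5AR1 (2.46 ± 0.30), C3AR1 (1.86 ± 0.30), receptors for the anaphylatoxins, and C1R (1.18 ± 0.27) and C3 (0.86 ± 0.23) rose in valve, 4 of 12 tested (2 without diet valve replicate 4 or any of control valve replicates 2 to 4), and 0 passed in myocardium, where 0.461% of all genes did. Lysosomal genes rose in 9 of 30 (1 without diet valve replicate 4, 3 without diet valve replicate 3, and 5, 3, 2 and 3 without control valve replicates 1 to 4), among them CTSS (1.97 ± 0.37), a cysteine protease, and GUSB (1.04 ± 0.21), a glycosidase. Of 9 mesothelial and epithelial genes 4 rose in valve, KRT5 (4.26 ± 0.71), KRT8 (2.49 ± 0.52), KRT19 (3.03 ± 0.59) and EPCAM (4.32 ± 0.72), and their sum was 43.81 to 192.6 CPM in 7-week diet valves and 10.44 to 24.15 CPM in control valves. Of 17 clock genes NR1D1 (-1.23 ± 0.30), NR1D2 (-0.98 ± 0.25) and HLF (-0.99 ± 0.22) fell in valve (1 without diet valve replicate 2 or control valve replicate 2 or 4, 0 without control valve replicate 3). In myocardium NR1D1 had nearly the same value, -1.20 ± 0.35, which did not pass (adjusted p = 0.161). The labels do not state the hour at which tissues were taken.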
